A study of Mus musculus with 6 samples.

Results

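The 10 genes described here encode the repressor REST, the 3 CoREST scaffolds (Rcor1, Rcor2 and Rcor3), the histone demethylase Kdm1a, the histone methyltransferases Ehmt1 and Ehmt2, and the small phosphatases Ctdsp1, Ctdsp2 and Ctdspl that act on the C-terminal domain (CTD) of RNA polymerase II. They were chosen by name, as rows annotated with 1 of these symbols alone, and all 10 of 10 were found, each with a single row, among 14807 genes and 17213 rows (transcript clusters). The arrays held RNA of N2A cells, a mouse neuroblastoma line. Control cells carried the empty vector (3 arrays), and depleted cells carried a hairpin (PTB shRNA, 3 arrays) aimed at PTB, the splicing repressor that Ptbp1 encodes, with a loss of PTB protein that the labels put near 80%. Both groups are the same cell line, so each is a culture model of 1 tumour cell type. The control carries no hairpin, so loss of PTB and other effects of a hairpin cannot be told apart. The labels call the 3 samples of a group biological replicates without naming separate cultures, so the p-values measure the spread between these samples.

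REST binds a DNA element called RE1 near many neuronal genes and keeps them silent in cells that are not neurons. CoREST proteins join REST to Kdm1a (also called LSD1), which removes methyl groups from lysine K4 of histone H3, and to the histone deacetylases Hdac1 and Hdac2. Ehmt1 (GLP) and Ehmt2 (G9a) act as a pair and methylate lysine K9 of the same histone. The phosphatases of the Ctdsp family remove phosphates from the polymerase tail and from REST itself, and they help to silence neuronal genes. REST is low in mature neurons.

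The phosphatase genes also carry microRNAs inside them. In RefSeq (GRCm38.p6), miR-26b lies within Ctdsp1, miR-26a-2 within Ctdsp2 and miR-26a-1 within Ctdspl, all on the strand of the gene, so the 3 genes share a microRNA family as well as an enzyme family. The mature 5′ arms are shown because they tie the 3 phosphatases together, with the seed (bases 2 to 8) in capitals. Both copies of miR-26a give the same 5′ arm.
miR-26b-5p (in Ctdsp1, chr1:74394324-74394344, plus strand): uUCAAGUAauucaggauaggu
miR-26a-5p (in Ctdsp2, chr10:126995543-126995564, plus strand, and in Ctdspl, chr9:119031811-119031832, plus strand): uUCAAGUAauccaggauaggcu
Counted from the 5′ end, the arms differ at C11U and C21U (miR-26a first), and the miR-26b arm ends 1 base earlier. No other of the 1679 mature microRNAs in the RefSeq table carries their seed, UCAAGUA. The arrays measured the host genes, not the microRNAs.

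The question put to the arrays was how RNA levels differ once PTB is depleted, and on the deposited scale none of the 10 genes passed. The test was limma's, on log2(signal + 16), with p adjusted over all 17213 rows, and its unadjusted p was under 0.05 for 1 gene upward (Ehmt1) and 3 downward (Rcor2, Rcor3 and Ctdsp2). Over all rows, 8.49% were higher and 16.9% lower at that unadjusted threshold, and 1.36% were called higher and 3.37% lower after adjustment. Each difference is depleted cells minus control cells on this log2 scale, with limma's standard error, and signals are mean ± SD of 3 arrays. Of the 10 differences, 4 were positive and 6 negative, with a median of -0.17 against 0 over all rows. Without the dimmest 50% of rows, which leaves 9 of the 10 genes, the median was -0.27 for the members and -0.18 for all remaining rows. A smaller RNA signal in such bulk samples can come from fewer cells holding the RNA or from less of it per cell, and these cannot be told apart.

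Ptbp1, the target of the hairpin, fell from 3998 ± 539 to 1435 ± 472, and the neuronal paralog Ptbp2 rose from 1528 ± 97.9 to 2982 ± 262 (limma adjusted p = 0.0402 and 0.0288). Leaving out any 1 of the 6 arrays ended both calls, and every other call over all rows with them. Summed signal ran from 10651755 to 12509077 with empty vector and from 9098056 to 10440265 with PTB shRNA. Markers of the neuroblastoma lineage were present in both groups: the 13 of 16 that were measured summed to 15898 to 18454 in the controls and 13476 to 16794 under PTB shRNA. Among these Th, the enzyme that starts catecholamine synthesis, was dim (21 to 62), and so was Ddc (40 to 66). Fibroblast markers (9 of 10 measured) summed to 491 to 547 and 582 to 827, glial markers (8 of 10) to 289 to 384 and 362 to 546, and leukocyte markers (6 of 8) to 72 to 94 and 85 to 123. Gfap (-5 to 11), Aldh1l1 (0 to 10), Adgre1 (-1 to 14) and Ptprc (6 to 14) were near 0 on every array. The glial markers Olig2 (114 to 218) and Sox10 (57 to 193) and the fibroblast marker Twist2 (209 to 341) were not. The fibroblast marker Pdgfra rose from 36.0 ± 6.08 to 102 ± 21.5 (adjusted p = 0.0342) and the neuroblastoma marker Gata3 from 175 ± 33.2 to 328 ± 8.19 (adjusted p = 0.0384), and the part of these markers in the results below was not tested.

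**Figure D1:**
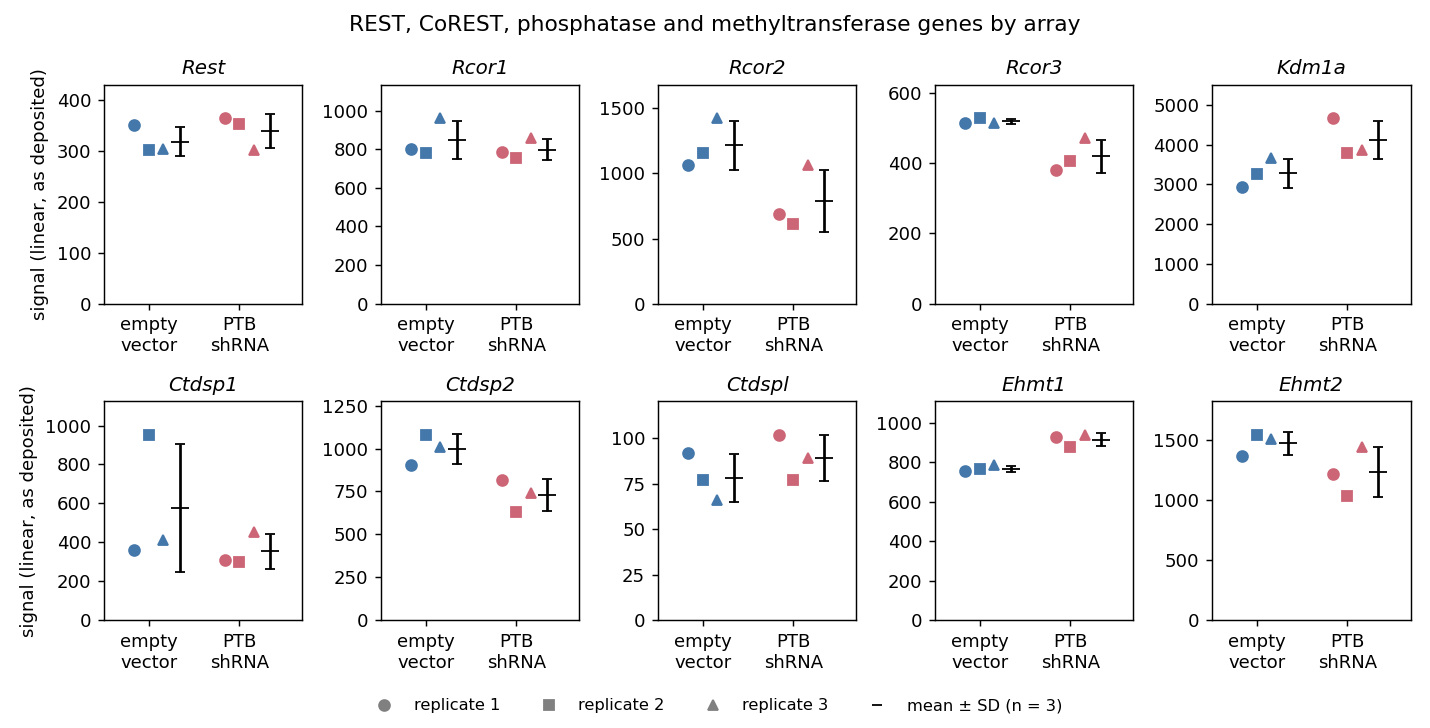
Signal of each of the 10 genes on each array (vertical axes, linear, as deposited and starting at 0), with marker shape for the replicate number and the mean ± SD of 3 arrays beside the points. Kdm1a and Ehmt1 are higher on all 3 PTB shRNA arrays than on any empty vector array, Rcor2, Rcor3 and Ctdsp2 are lower on all 3, and in the other 5 genes the groups overlap.

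Rest itself hardly differed between the groups. Its signal was 351, 301 and 303 in the controls, against 364, 353 and 301 under PTB shRNA. The groups overlapped, with 1 array of each group at 301. The difference was 0.09 ± 0.11 (SE), with a 95% interval from -0.20 to 0.37 (adjusted p = 0.683), so a change of Rest by more than 0.37 in either direction lies outside that interval. With quantile normalization, which gives all arrays 1 distribution, the difference was 0.22 (-0.11 to 0.54, adjusted p = 0.370). A gene-level signal does not show which exons an RNA held, for Rest or for any other gene here. The neuronal splice form of Rest that lacks part of the protein was thus not analysed, nor was exon use in the other genes.

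The CoREST scaffolds, which link REST to the demethylase, did not differ alike. Rcor1, the most studied of the scaffolds, gave 803, 779 and 960 in the controls, against 783, 752 and 857 under PTB shRNA. These values overlap, and the difference was -0.08 ± 0.11 (-0.37 to 0.20, adjusted p = 0.702). It was 0.12 after quantile normalization, and 0.0094 without empty vector array 3, so it has no stable sign.

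Rcor2, the scaffold with a known role in neural progenitors, gave 1066, 1156 and 1424 in the controls, against 689, 614 and 1064 under PTB shRNA. Every PTB shRNA array was below every empty vector array, but array 3 of the PTB shRNA group missed the lowest control value by only a little. The mean was 35.1% lower, a difference of -0.64 ± 0.24 (-1.23 to -0.06, adjusted p = 0.166). Without PTB shRNA array 3 it was -0.88 (adjusted p = 0.0657). That array also had the highest Ptbp1 signal of its group (1957, against 1307 and 1040). It was the highest of the 3 for 45.7% of all rows at or above the median signal, and PTB shRNA array 1 was for 42.6%. Whether Rcor2 goes with Ptbp1 was not tested.

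Rcor3 gave 516, 528 and 514 in the controls, a very narrow spread, against 381, 406 and 472 under PTB shRNA. The groups were apart, with a mean 19.2% lower and a difference of -0.30 ± 0.10 (-0.56 to -0.05, adjusted p = 0.142). After quantile normalization it was -0.13 (-0.38 to 0.13), an interval that holds 0.

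Kdm1a, the demethylase that the scaffolds carry, went the other way from Rcor2. Its signal was 2921, 3257 and 3654 in the controls, against 4660, 3794 and 3867 under PTB shRNA. All 3 PTB shRNA arrays were above the 3 controls, with the highest value on PTB shRNA array 1. The mean was 25.3% higher, a difference of 0.32 ± 0.13 (-0.003 to 0.65, adjusted p = 0.200). After quantile normalization Kdm1a rose by 0.61 ± 0.08 (0.40 to 0.81, adjusted p = 0.0304). Brighter rows as a whole were dimmer in the depleted cells (median difference of -0.18 once the dimmest 50% of rows are left out). The part of that shift in the Kdm1a call after quantile normalization was not tested.

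The 2 methyltransferases of lysine K9 differed from each other. Ehmt1 gave 753, 765 and 783 in the controls, against 929, 875 and 938 under PTB shRNA. Its groups were tight and far apart, and the mean was 19.2% higher, a difference of 0.25 ± 0.07 (0.06 to 0.43, adjusted p = 0.114). After quantile normalization Ehmt1 rose by 0.44 ± 0.07 (0.27 to 0.61, adjusted p = 0.0354).

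Ehmt2, its partner enzyme, gave 1363, 1543 and 1509 in the controls, against 1220, 1030 and 1445 under PTB shRNA. Only PTB shRNA array 3 reached into the range of the controls. The difference was -0.27 ± 0.14 (-0.62 to 0.09, adjusted p = 0.317), and -0.07 after quantile normalization.

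Kdm1a and Ehmt1 were the 2 members called after quantile normalization, both higher, with 0 lower. Of all rows, 2.94% were then called higher and 2.85% lower. Counted by arrays instead, 2 of the 10 genes were higher on every PTB shRNA array than on any control, against 10.3% of all rows, and 3 were lower on every array, against 19% of all rows. For each of these 5 genes the exact two-sided permutation test gave p = 0.1, the smallest that 3 and 3 arrays allow.

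**Figure D2:**
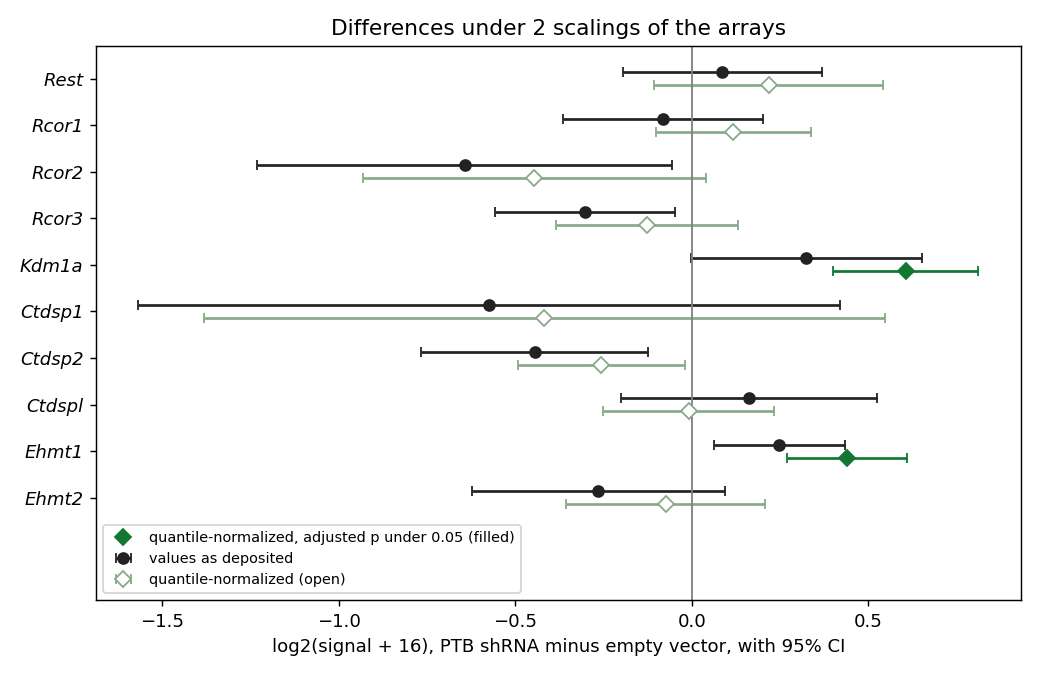
Difference between PTB shRNA and empty vector for each gene (horizontal axis, log2(signal + 16) units, with limma's 95% intervals), as deposited (circles) and after quantile normalization (diamonds, filled where the adjusted p was under 0.05). Kdm1a and Ehmt1 move from 0.32 and 0.25 to 0.61 and 0.44, Rcor1 changes sign from -0.08 to 0.12, and Ctdsp1 has the widest interval, from -1.57 to 0.42.

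Among the phosphatases, Ctdsp1 was decided by a single array. Its signal was 363, 952 and 413 in the controls, against 307, 297 and 455 under PTB shRNA. Empty vector array 2 stood far above the other 5, which overlapped. The mean difference of -0.57 ± 0.40 (-1.57 to 0.42, adjusted p = 0.429) became -0.15 without that array (adjusted p = 0.745). Its interval was the widest of the 10.

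Ctdsp2 gave 903, 1080 and 1012 in the controls, against 819, 633 and 741 under PTB shRNA. The groups were apart, the mean was 26.8% lower and the difference was -0.45 ± 0.13 (-0.77 to -0.12, adjusted p = 0.106). After quantile normalization it was -0.26 (-0.49 to -0.02, adjusted p = 0.172). When the dimmest 50% of rows were left out of the fit, Ctdsp2 and Rcor2 fell with adjusted p = 0.0300 and 0.0152, but 24.4% of the remaining rows were then called lower, and their median difference was -0.18.

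Ctdspl, the third phosphatase, was dim: 92, 77 and 66 in the controls, against 102, 77 and 89 under PTB shRNA, below the array medians of 183 to 206. The groups overlapped, and the difference of 0.16 ± 0.15 (-0.20 to 0.52, adjusted p = 0.542) was -0.0086 after quantile normalization.

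Ratios between genes on the same array do not depend on how bright the array was as a whole. For 10 pairs, chosen after the values had been seen, the log2 ratio was taken on each array and set against its mean with empty vector. Kdm1a over Rcor2 lay between -0.07 and 0.06 with empty vector and at 1.31, 1.17 and 0.42 with PTB shRNA, a mean shift of 0.97 ± 0.48 (SD, n = 3), or 1.95-fold. All 3 PTB shRNA arrays were above the controls, the third by much less than the others.

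Kdm1a over Rcor3 shifted by 0.63 ± 0.29 and Kdm1a over Rcor1 by 0.41 ± 0.20, again with no overlap. Kdm1a alone was higher, and Rcor2 and Rcor3 alone were lower, on every PTB shRNA array than on any control. The lack of overlap for Kdm1a over Rcor2 and over Rcor3 therefore repeats the single-gene results and adds no support to them. Rcor2 over Rcor1 was lower on all 3 PTB shRNA arrays (-0.69, -0.79 and -0.20, against -0.11 to 0.05). Ehmt1 over Ehmt2 stood at 0.54, 0.69 and 0.31 with PTB shRNA and between -0.07 and 0.08 with empty vector, a shift of 0.51 ± 0.19 or 1.43-fold.

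Ctdspl over Ctdsp2 was at 0.61, 0.63 and 0.58 with PTB shRNA and between -0.22 and 0.34 with empty vector, although dim Ctdspl makes this ratio depend on the scaling (0.61 as deposited and 0.25 after quantile normalization). The other 4 pairs overlapped between the groups. In all, 6 of the 10 pairs did not overlap, each with an exact two-sided permutation p = 0.1 (adjusted p = 0.167 over 10 pairs, which share genes). For Kdm1a over Rcor2 and over Rcor3 this was settled by the single genes. Among 284635 pairs drawn from every 10th gene at or above the median signal, 41.2% did not overlap. That background holds no gene as dim as Ctdspl, which is in 1 of the 6 pairs. Quantile normalization left the shifts of Kdm1a over Rcor1, Rcor2 and Rcor3 at 0.49, 1.05 and 0.73 and that of Ehmt1 over Ehmt2 at 0.51.

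**Figure D3:**
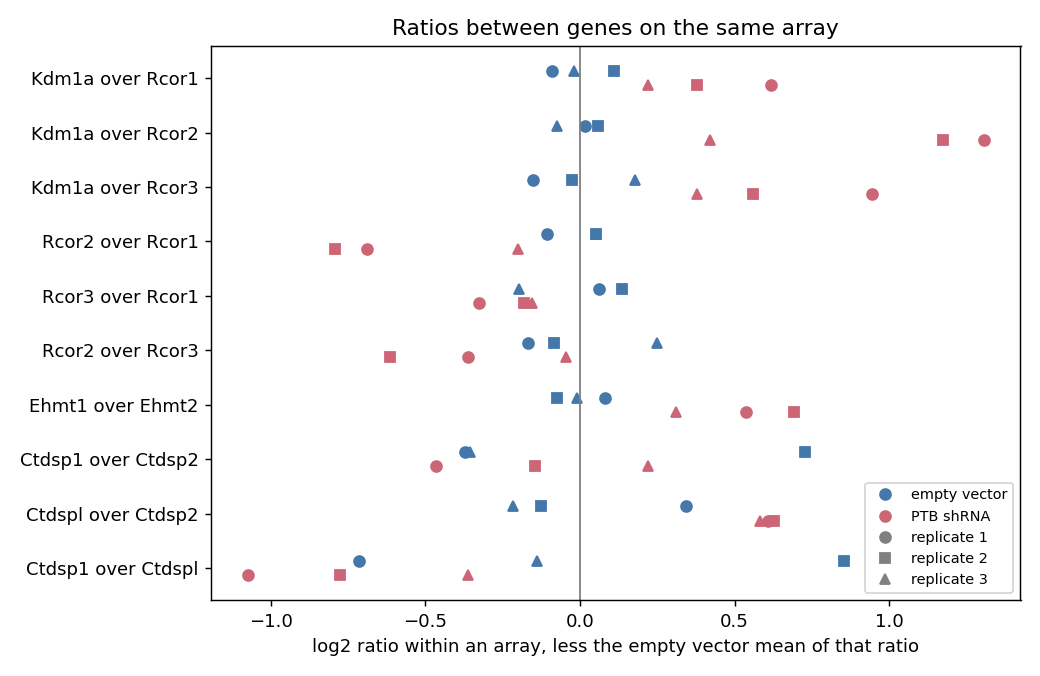
Log2 ratio of 2 genes on the same array, less the empty vector mean of that ratio (horizontal axis), for 10 pairs, with colour for the group and marker shape for the replicate number. In the 3 pairs with Kdm1a and in Ehmt1 over Ehmt2 all PTB shRNA points lie to the right of all empty vector points, and in the pairs with Ctdsp1 the points mix.

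The genes whose pattern over the 6 arrays came closest to a member were found by the root mean square distance of log2 signals, each less its own mean, among 7437 genes at or above the median signal. Nearest to Rest were Rnf215 (distance 0.04), Zfp84 (0.04) and Ccpg1 (0.05). For Kdm1a they were Cltb (0.05), Rhobtb3 (0.06) and Chpt1 (0.06). Ctdsp1 had no such close companion: its nearest were H4c14 (0.21), Recql4 (0.23) and Arfrp1 (0.25), and in each of them, too, empty vector array 2 was the highest array. The adjusted p-values of these 9 genes ran from 0.168 to 0.916, so none passed. They were chosen for their likeness on the same 6 arrays. A shared highest array and the lack of a call thus follow from the choice.

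Of the other partners of REST, 16 that are not among the 10 genes were measured, and 2 fell and 0 rose, with a median difference of -0.14. Over all rows, as above, 3.37% were called lower and 1.36% higher, which is also the background for the lists that follow. The median difference was 0 over all rows and -0.18 without the dimmest 50% of them. Med19, a Mediator subunit that REST is known to contact, gave 1182, 1399 and 1342 in the controls, against 816, 675 and 758 under PTB shRNA. These groups were far apart, and Med19 fell by 0.79 ± 0.11 on the log2 scale (adjusted p = 0.0342). Hdac1, a deacetylase carried by CoREST, gave 2082, 2345 and 2421 against 1392, 1330 and 1550, and fell by 0.67 ± 0.10 (adjusted p = 0.0362). A second, dimmer row of Hdac1 was at -0.53 and did not pass (adjusted p = 0.182). Hdac2, the other deacetylase of the complex, was at 0.05 ± 0.12 (adjusted p = 0.824, named after its values were seen). Both calls ended with a pseudocount of 1 (adjusted p = 0.0505 for Med19 and 0.0551 for Hdac1).

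The regulators of REST held no call among 6 measured genes, with a median of -0.30. The ubiquitin proteases Usp15, known to support REST synthesis, and Usp7, known to protect REST from degradation, had the largest differences. Usp15 was at -0.35 ± 0.13 (adjusted p = 0.163) and Usp7 at -0.34 ± 0.16 (adjusted p = 0.261), and after quantile normalization they were at -0.10 and -0.12.

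Beside the Ctdsp genes, 12 further phosphatases and kinases of the polymerase tail and related genes were measured, of which 2 fell and 0 rose (median -0.18). Both that fell are phosphatases. Ssu72 gave 1450, 1673 and 1588 in the controls, against 913, 822 and 933 under PTB shRNA, and fell by 0.81 ± 0.10 (adjusted p = 0.0320). Rpap2 gave 636, 623 and 600 against 480, 456 and 442, and fell by 0.42 ± 0.08 (adjusted p = 0.0465). The groups of Rpap2 were tight and apart, but its call ended after quantile normalization (-0.23, adjusted p = 0.211), with array medians aligned (adjusted p = 0.0851), with a pseudocount of 1 (0.0644) and without the dimmest 30% of rows (0.0502).

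Among 17 measured genes of lysine K9 and K4 methylation, 1 fell and 0 rose, with a median of -0.10 that was 0.15 after quantile normalization. Kdm4c, a demethylase of lysine K9, gave 670, 672 and 693 in the controls, against 488, 484 and 425 under PTB shRNA and fell by 0.53 ± 0.09 (adjusted p = 0.0387). That call ended after quantile normalization (-0.34, adjusted p = 0.124), with array medians aligned (0.0524) and with a pseudocount of 1 (0.0571).

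**Figure D4:**
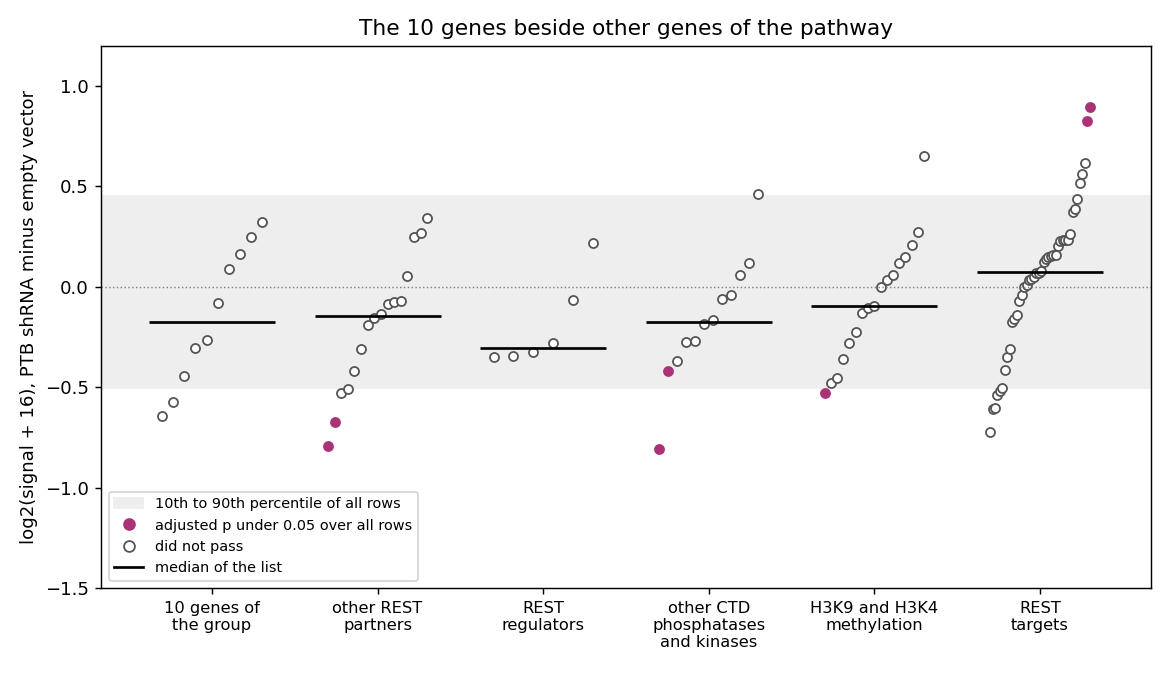
Difference between PTB shRNA and empty vector (vertical axis, log2(signal + 16) units) for each gene of 6 lists, with the list median as a line and the range from the 10th to the 90th percentile of all rows (-0.50 to 0.45) in grey. None of the 10 genes is filled as called, the filled points below 0 are Med19, Hdac1, Ssu72, Rpap2 and Kdm4c, and those above 0 are the REST targets Cdk5r1 and Gria2.

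Genes that REST is known to repress were examined as well. REST protein and its binding were not measured, so whether the complex had a part in their levels was not tested. Of 42 measured, 2 rose and 0 fell, 27 had a positive and 15 a negative difference, and the median was 0.08 (0.21 after quantile normalization). Counted by arrays, 9 were higher and 8 lower on every PTB shRNA array than on any control, against 10.3% and 19% of all rows. Among those lower were Olfm1 (-0.73 ± 0.20, limma adjusted p = 0.0923) and Rundc3a (-0.60 ± 0.13, adjusted p = 0.0599), neither called. Cdk5r1, the activator of the neuronal kinase Cdk5, gave 147, 142 and 143 in the controls, against 331, 262 and 258 under PTB shRNA. Its groups were far apart and it rose by 0.90 ± 0.12 (adjusted p = 0.0320). Gria2, an AMPA-type glutamate receptor subunit and a well-known RE1 gene, gave 324, 354 and 327 against 661, 699 and 483, and rose by 0.83 ± 0.16 (adjusted p = 0.0492). The Gria2 call ended with a pseudocount of 1 (adjusted p = 0.0703). These 2 of 42 stand beside 1.36% of all rows called higher. Without the dimmest 50% of rows, 5 targets were called higher and 5 lower, where 4.48% and 24.4% of all remaining rows were. Lower calls also came up without the dimmest 30% of rows (2), with trend and robust eBayes (3), with a pseudocount of 50 (1) and with array weights (1), so the absence of lower calls depends on the setting.

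The left and right parts of RE1 were looked for in the RefSeq promoter windows (GRCm38.p6, 250 bases before to 50 after the gene start) on both strands, the left as CAGCACC and the right as GGACAGC. The 26 measured targets with a window have 36 windows. The left part was in 4 of these (11.1%; Celsr3, Chgb, Scg2 and Syn1), against 7.14% of all 32851 windows. The right part was in 2 (5.56%; Gria2 and Scg2), against 6.56% of all windows. Both together meant the left, then the first 6 letters of the right within 14 bases. By exact letters they stood in Scg2 alone among the measured targets and in 0.119% of all windows. A part with a changed letter was not counted, so a missing match does not show that the part is absent. In the stretches below, tagcacc stands shortly before the right part in Gria2. After the left part come gggcag in Celsr3 and ggtcag in Syn1. Stretches in Gria2, Scg2, Celsr3 and Syn1 are shown with the matched letters in capitals. The match in Chgb and a further match in Syn1 are not printed.
Gria2 (chr3:80802988-80803028, plus strand): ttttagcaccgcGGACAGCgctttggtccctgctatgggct
Scg2 (chr1:79440015-79440061, plus strand): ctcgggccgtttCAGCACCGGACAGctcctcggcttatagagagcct
Celsr3 (chr9:108825908-108825948, plus strand): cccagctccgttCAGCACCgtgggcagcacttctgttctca
Syn1 (chrX:20921120-20921160, minus strand): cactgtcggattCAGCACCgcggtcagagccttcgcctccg
Of these genes, Gria2 rose, as given above. Celsr3, a cadherin with a receptor tail, gave 472, 498 and 483 in the controls, against 634, 590 and 673 under PTB shRNA, apart but not called (0.37 ± 0.08, adjusted p = 0.0686). Syn1, a synaptic vesicle protein gene, was at 0.39 ± 0.13 (adjusted p = 0.150), with 217, 185 and 238 against 301, 246 and 305. Scg2, a granin of secretory vesicles, was at 0.15 ± 0.12 (adjusted p = 0.478) and Chgb, another granin, at -0.54 ± 0.17 (adjusted p = 0.122). Genes with a match thus had differences of both signs.

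The 10 genes' own windows were searched in the same way. RefSeq windows were found for 9 of the 10 (11 windows). The left part was in none, against 7.14% of all windows. The right part was in 2 of the 11 (18.2%), those of Ctdsp1 and Rcor2, against 6.56% of all windows. They are shown here because Rcor2 had the most negative difference of the 10. Whether a match goes with the difference was not tested.
Rcor2 (chr19:7267314-7267354, plus strand): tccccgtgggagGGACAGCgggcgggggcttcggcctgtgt
Ctdsp1 (chr1:74391441-74391481, minus strand): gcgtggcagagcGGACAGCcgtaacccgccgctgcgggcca
A match of 7 letters is a description of the sequence and not a binding site. As a group these windows were rich in CG pairs, with 9 to 47 and a median of 31. Over all windows the median was 7 and the 90th percentile 31. Their G and C content ran from 52.7% to 82.7% with a median of 70.3%, against a median of 52.7% over all windows. The window with 9 CG pairs is the downstream one of the 2 of Ctdsp2, and its G and C content (52.7%) was that of the median window. Kdm1a and Ehmt1, the 2 genes called after quantile normalization, held 29 and 34 CG pairs, shown in capitals.
Kdm1a (chr4:136602674-136602973, minus strand): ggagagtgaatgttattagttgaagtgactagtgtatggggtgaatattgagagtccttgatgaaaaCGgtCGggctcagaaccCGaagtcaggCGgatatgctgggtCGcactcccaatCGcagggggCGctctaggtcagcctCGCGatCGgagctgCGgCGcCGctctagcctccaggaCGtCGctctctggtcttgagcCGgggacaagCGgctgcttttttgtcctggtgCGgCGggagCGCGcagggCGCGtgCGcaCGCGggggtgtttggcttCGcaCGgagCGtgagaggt
Ehmt1 (chr2:24919560-24919859, minus strand): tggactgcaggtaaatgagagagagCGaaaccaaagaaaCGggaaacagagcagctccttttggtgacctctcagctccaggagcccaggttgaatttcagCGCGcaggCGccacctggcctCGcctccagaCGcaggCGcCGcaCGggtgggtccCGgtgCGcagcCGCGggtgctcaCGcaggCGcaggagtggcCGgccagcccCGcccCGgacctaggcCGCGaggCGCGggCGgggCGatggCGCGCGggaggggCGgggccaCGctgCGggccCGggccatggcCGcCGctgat
Rcor2, with the most negative difference, held 21 CG pairs. Of the others lower on every array, Rcor3 held 47, and Ctdsp2 held 25 and 9 in its 2 windows. Among genes whose groups overlapped, Rcor1 held 31, Ctdsp1 34, Ctdspl 43, and Ehmt2 28 and 40. Whether the number of CG pairs goes with the difference was not tested.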

How the data were processed

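RNA of 6 samples was read on Affymetrix mouse exon arrays. The authors deposited 1 linear intensity for each transcript cluster, a whole number that can be below 0. The submitters' processing notes name GCOS 1.3. Summarisation, background subtraction and scaling were not given in the sources used here. Rows were named through the platform annotation (15146 rows with 1 symbol, 1278 with several, 789 with none), and all 10 members matched RefSeq (GRCm38.p6) by Entrez identifier. Negative values were raised to 0, then log2(signal + 16), which understates changes of dim genes, was fitted with limma 3.58.1 (R 4.3.3, lmFit and eBayes, all 6 arrays, no block, Benjamini-Hochberg over all rows, threshold 0.05). The fit was tested on simulated data. The number of arrays, 3 a group, limits the precision.

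The members and the lists (173 entries) were chosen with earlier results of these data known. For lists, the brightest row stood for a gene. From each list up to 4 genes past the threshold with the largest difference were named, or 2 where none passed. Hdac2, Celsr3, Syn1, Scg2, Chgb, Olfm1, Rundc3a, the markers and the genes of the closing observations were named after their values were seen. Ratios between members and the sequence features were also chosen after seeing the data. Alternatives were quantile normalization, median centring, pseudocounts of 1 and 50, filters of 30% and 50% of rows, trend and robust eBayes, array weights, a replicate block and leaving out each array. Figures were drawn with matplotlib 3.10.9.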

Additional observations from a re-analysis of the deposited data

How the results depend on the processing

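Of the 15 alternatives, 2 called any member: quantile normalization gave 2 higher, and leaving out the dimmest 50% of rows gave 2 lower. Ctdspl is too dim to be in that second fit. The members' median of -0.17 became -0.041 and -0.27 in those 2 settings, and -0.26 to -0.093 with any 1 array left out. Rcor1 turned to 0.12 after quantile normalization and ranged from -0.14 to 0.0094 with 1 array left out, positive without empty vector array 3, and Ctdspl turned to -0.0086 after quantile normalization. The cause was not tested.

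Over all rows, 234 were higher and 580 lower. The counts were 506 and 491 after quantile normalization, 376 and 716 with median centring, 84 and 132 with a pseudocount of 1, 322 and 930 with 50, 499 and 1386 without the dimmest 30% of rows, 386 and 2100 without the dimmest 50%, 463 and 1502 with trend and robust eBayes, and 445 and 1180 with array weights. Leaving out any 1 array gave 0 and 0 in limma, with 1001 to 1721 higher and 2008 to 3018 lower at an unadjusted p under 0.05. With the replicate block the counts were 0 and 0 (1708 and 2963 unadjusted). Same-numbered arrays correlated at 0.23, 0.05 and 0.26 in their deviations from the group means, each array best with its own number, a hint from the data that falls short of showing pairs.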

Other observations

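Some genes outside the 10 did not pass as deposited but passed after quantile normalization, and were picked out here after their values were seen. Phf21a, the histone reader of the CoREST complex, gave 669, 698 and 775 in the controls, against 912, 834 and 805 under PTB shRNA (0.25 as deposited, adjusted p = 0.187, and 0.44 after it, adjusted p = 0.0457). Kdm1b, the paralog of Kdm1a that works outside CoREST, gave 242, 293 and 292 against 404, 501 and 422 (0.65 as deposited, adjusted p = 0.0521, and 0.80, adjusted p = 0.0408). Smarcc2, a chromatin remodelling subunit, was at 0.27 as deposited (adjusted p = 0.265) and 0.49 after it (adjusted p = 0.0433), with groups that overlap. In contrast to Ssu72 and Rpap2, Ublcp1, a phosphatase of the proteasome with a polymerase-tail type domain, gave 733, 821 and 981 against 1059, 1213 and 1227 (0.46 as deposited, adjusted p = 0.107, and 0.65, adjusted p = 0.0394).

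Among the regulators of REST, Srrm3, a neuronal splicing factor, had a narrow spread: 476, 469 and 459 in the controls, against 545, 544 and 553 under PTB shRNA. Its difference of 0.22 did not pass (adjusted p = 0.128) and was 0.40 after quantile normalization (adjusted p = 0.0498). Of the REST targets, 5 of 42 were called higher and 0 lower after quantile normalization, where 2.94% and 2.85% of all rows were: Cdk5r1, Gria2, Celsr3 (0.56), Vamp2 (0.64) and Ntrk3 (0.45), the last 3 with adjusted p-values as deposited of 0.0686, 0.122 and 0.141.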
